A study of Mus musculus with 4 samples.

Results

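The paralogous miR-23/27/24 clusters were examined in small RNA libraries from mouse bone marrow–derived macrophages (BMDMs), macrophages grown from marrow cells in the growth factor M-CSF. The members were taken by name and comprised mmu-miR-23a-3p, mmu-miR-27a-3p and mmu-miR-24-2-5p from the a cluster, mmu-miR-23b-3p, mmu-miR-27b-3p and mmu-miR-24-1-5p from the b cluster, and mmu-miR-24-3p, which both clusters encode. They were 7 of the 1979 mature miRNAs in the table and filled 8 of its 2129 lines, since miR-24-3p has a line for each of its hairpins. All 7 had a mean of at least 10 RPM (reads per 1000000 counts of the library) and so belonged to the 251 miRNAs taken as expressed.

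The 4 libraries were WT A and WT B, both wild type, KO, from cultures lacking mir-146a, and 3′F, from cultures in which the non-seed 3′ portions of the mir-146a duplex strands are exchanged. All mice were 129/B6 mixes of 6 to 7 months, and both mutant alleles were made by gene targeting in embryonic stem cells and are carried in every cell. Marrow grew in M-CSF (10 ng/ml) over 8 to 9 days, and all cultures were then kept for 16 h in medium without LPS, so no group was stimulated. The labels name several mice of each genotype without saying whether a library pools them. WT A and WT B were treated as independent cultures, and the KO and 3′F values have no replicate check.

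The library totals ranged from 11410940 counts in WT B to 19087640 in KO, so a level of 3 counts corresponded to between 0.157 and 0.263 RPM. miR-146a-5p, which checks the genotypes, came to 6253 RPM for WT A, 5485 for WT B, 13.4 for KO and 6.64 for 3′F. Both mutant libraries thus nearly lacked the wild-type strand, which does not tell KO from 3′F. Of 4 miRNAs typical of blood cells, miR-223-3p, which marks myeloid cells, lay between 1466 and 1636 RPM and was highest in KO. miR-142a-3p came to 1721 RPM for WT A, 1121 for WT B, 1115 for KO and 1071 for 3′F, and miR-155-5p to 71.3, 70.3, 55.2 and 62.7 in the same order, so both were below both WT libraries in each mutant. miR-142a-5p lay between 170 and 268 RPM, with both mutants within the WT range.

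MicroRNAs guide Argonaute proteins to mRNAs, chiefly through their seed, the bases near the 5′ end that pair with the target, and thereby lower the output of those mRNAs. Each cluster encodes hairpins of the miR-23, miR-27 and miR-24 families in that order, and the hairpins of a cluster are transcribed together before each is cut into a 5p and a 3p strand. miR-23 is known for restraining glutaminase, miR-27 for targeting the lipid regulator Pparg, and miR-24 for targeting cell cycle genes.

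By the GENCODE vM21 annotation of GRCm38, the a cluster covers 404 bp on the plus strand of chromosome 8. Mir23a (ENSMUSG00000065611.1) lies at chr8:84208518-84208592, Mir27a (ENSMUSG00000065444.1) starts 79 bases after it at chr8:84208672-84208758, and Mir24-2 (ENSMUSG00000065541.1) follows after 56 bases at chr8:84208815-84208921. Mir23a and Mir27a overlap no other annotated gene, whereas Mir24-2 overlaps an exon of the lincRNA gene Gm26532 on its own strand. The b cluster covers 792 bp on the plus strand of chromosome 13, with Mir23b (ENSMUSG00000065599.2) at chr13:63300484-63300557, Mir27b (ENSMUSG00000065475.2) at chr13:63300712-63300784 and Mir24-1 (ENSMUSG00000105904.1) at chr13:63301208-63301275. Its hairpins are spaced by 154 and 423 bases. All of it lies within the protein-coding gene 2010111I01Rik on the same strand and within Fancc on the opposite strand. Mir23b overlaps no annotated exon and is intronic, whereas Mir27b and Mir24-1 overlap exons and UTR of nonsense-mediated-decay transcripts of 2010111I01Rik.

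The mature sequences show how far reads can tell the clusters apart, and 6 of the 7 members, all but miR-23b-3p, were found in the RefSeq table (GRCm38.p6). They are given 5′ to 3′ with the seed, bases 2 to 8, in capitals and grouped by seed, first miR-23a-3p (chr8:84208563-84208583), then miR-27a-3p (chr8:84208727-84208747) and miR-27b-3p (chr13:63300760-63300780), then the 5p strands of miR-24 (chr8:84208839-84208860 and chr13:63301213-63301235), then miR-24-3p.
miR-23a-3p: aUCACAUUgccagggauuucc
miR-27a-3p: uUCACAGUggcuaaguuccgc
miR-27b-3p: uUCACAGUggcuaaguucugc
miR-24-2-5p: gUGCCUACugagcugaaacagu
miR-24-1-5p: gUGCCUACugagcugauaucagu
miR-24-3p: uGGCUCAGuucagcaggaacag

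Counted from 1 at the 5′ end, miR-27b-3p differs from miR-27a-3p by C19U alone, so the first 18 bases are common to both. The 5p strands of miR-24 share their first 16 bases and have 22 and 23 nt. No expressed miRNA outside the clusters has the seed of miR-27-3p, miR-24-3p or the miR-24 5p strands. The sequence of miR-24-3p is the same at both loci, at chr8:84208875-84208896 and chr13:63301251-63301272, and its reads carry no mark of their locus. The 5p strands of miR-24 do differ, and they are used below to tell the loci apart. Their read numbers are not a measure of the output of a locus. In WT A the b cluster gave 2.14% of the miR-24 5p counts but 94.9% of the miR-27-3p counts.

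Reads that fit several miRNAs were divided among them in the deposited counts, which then need not be whole. Both miR-23a-3p and miR-23b-3p had a count that was not whole in WT B, both miR-27a-3p and miR-27b-3p had one in each library except 3′F, and both 5p strands of miR-24 had one in WT A. miR-24-3p had one in WT A and in KO. The 5p strands of miR-23 and miR-27 had whole counts in all 4 libraries. The number of reads shared out is not known, so the a and b values of these pairs may not be independent of each other.

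**Figure D1:**
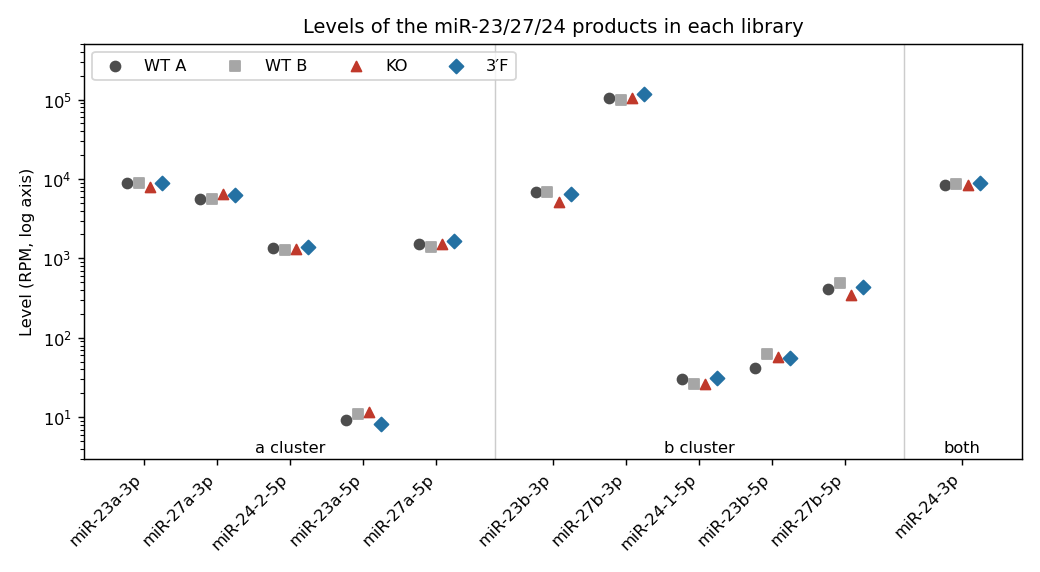
Level of each product in the 4 libraries, in RPM on a log axis, for the a cluster, the b cluster and miR-24-3p, which both encode. Each point is 1 library. miR-27b-3p stands highest, from 99197 to 116117 RPM, the 3p strands of miR-23 and miR-24 between 5082 and 8944 RPM, and miR-24-1-5p between 26.3 and 30.8 RPM.

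The products of the clusters differed widely in read number, from miR-24-1-5p at 26.3 RPM in KO to miR-27b-3p at 116117 RPM in 3′F, while no member differed from its WT mean by more than 1.34-fold in KO or 3′F. Together the 7 members, with miR-24-3p taken from its Mir24-2 line alone, held 13.5% of all counts for WT A, 13.0% for WT B, 13.5% for KO and 14.8% for 3′F. Of these sums miR-27b-3p alone made up between 76.1% and 78.5%. The Mir24-1 line, which is part of the library totals, held another 141682.5 counts for WT A. With that line included the share of the members would be higher and the part of miR-27b-3p lower. Read numbers of different miRNAs are not a measure of their relative abundance in the cell, since the ligation of a small RNA into a library depends on its sequence. A lower value in a library of bulk cells can come from fewer cells of a type or from less RNA per cell, which cannot be told apart.

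mmu-miR-27b-3p, the b copy of miR-27, came to 104019 RPM for WT A, 99197 for WT B, 105667 for KO and 116117 for 3′F. It had rank 2 among the expressed miRNAs in each library, behind miR-21a-5p. mmu-miR-27a-3p, its a copy, came to 5547 RPM for WT A, 5647 for WT B, 6529 for KO and 6198 for 3′F. Both copies were slightly higher in each mutant library than in either WT library, except that miR-27b-3p in KO lay between the WT libraries under the TMM scaling of edgeR and the size factors of DESeq2. The log2 ratio, log2(RPM + 1) minus its WT mean, of miR-27b-3p reached 0.06 in KO against 0.19 in 3′F. That of miR-27a-3p reached 0.22 in KO against 0.15 in 3′F.

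mmu-miR-23a-3p came to 8944 RPM for WT A, 8822 for WT B, 7841 for KO and 8907 for 3′F. Its level was lower in KO than in both WT libraries, with a log2 ratio of -0.18, and in 3′F lay between them in RPM but above both under each other scaling. mmu-miR-23b-3p came to 6796 RPM for WT A, 6837 for WT B, 5082 for KO and 6517 for 3′F. The WT libraries were nearly equal, and the KO library stood below them, 1.34-fold lower than the WT mean of 6817 ± 28.9 RPM (SD, n = 2). The 3′F library was slightly below both as well, with a log2 ratio of -0.07, but this ratio was 0.01 under TMM and 0.00 under the size factors of DESeq2.

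mmu-miR-24-3p came to 8300 RPM for WT A, 8625 for WT B, 8485 for KO and 8800 for 3′F. KO lay between the WT libraries and 3′F above both, with a log2 ratio of 0.06. These values are those of the Mir24-2 line, which held between 9 and 20 counts more than the Mir24-1 line in each library. Both lines had a count that was not whole in WT A and in KO, and both were whole in WT B and 3′F. How many reads of this strand were divided between the lines is not stated. Its level may therefore be understated, and so may its ratio to other miRNAs.

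The locus-specific 5p strands of miR-24 were unequal. mmu-miR-24-2-5p, from the a cluster, came to 1369 RPM for WT A, 1268 for WT B, 1326 for KO and 1391 for 3′F. mmu-miR-24-1-5p, from the b cluster, came to 29.96 RPM for WT A, 26.5 for WT B, 26.3 for KO and 30.8 for 3′F. For the latter the 95% Wilson intervals, which cover counting error only, ran from 27.5 to 32.7 RPM for WT A and from 24.1 to 28.7 RPM in KO, so the libraries overlapped.

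The comparison of KO with WT asks which of these miRNAs depend on mir-146a in resting macrophages. None of the 7 members passed the edgeR quasi-likelihood test at an adjusted p under 0.05 (Benjamini-Hochberg over the 251 expressed miRNAs), whereas 12.0% of the expressed miRNAs did. At an unadjusted p under 0.05 by edgeR, 1 of the 7 passed, miR-23b-3p, as did 54 of the 251 expressed miRNAs. DESeq2 gave the same counts for the members, 0 adjusted and 1 unadjusted. For miR-23b-3p the edgeR log2 fold change was -0.44 with an SE of 0.19, and the adjusted p of the quasi-likelihood test was 0.127. Its adjusted p ranged from 0.0419, when only miRNAs with a mean of at least 100 RPM were tested, to 0.530 over the other tests and filters. The change of the remaining 6 members lay between -0.20 for miR-23a-3p and 0.21 for miR-27a-3p by edgeR, with adjusted p-values of the quasi-likelihood test from 0.580 to 0.975. The spread in this test came from the 2 WT libraries only, and the lone KO library was assumed to vary like them.

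Of the defining miRNAs of other cell types, 11 of 14 were under 10 RPM in every library and 1, the neuronal miR-124-3p, was at 0 in all. The summed level of the 14 was 72.1 RPM for WT A, 95.5 for WT B, 52.4 for KO and 55.4 for 3′F, and so was lower in both mutant libraries. The erythroid miR-451a, named here after its values were seen, came to 18.7 RPM for WT A, 29.97 for WT B, 4.09 for KO and 8.03 for 3′F. The epithelial miR-200c-3p, the largest part of the sum, came to 32.5, 44.6, 28.3 and 30.9 RPM in the same order. The endothelial miR-126a-3p went the other way in KO, at 10.7, 9.82, 13.2 and 10.3 RPM. The part of these differences in the level of miR-23b-3p was not tested.

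Counted without a test, 3 of the 7 members (miR-23a-3p, miR-23b-3p and miR-24-1-5p) were below both WT libraries in KO, where 39.4% of expressed miRNAs were, and 2 (miR-27a-3p and miR-27b-3p) were above both, where 37.8% were. In RPM each count was close to the share of all expressed miRNAs. Under TMM or the size factors of DESeq2 the counts were 2 and 1, since miR-24-1-5p and miR-27b-3p then lay between the WT libraries. Of the expressed miRNAs 40.2% were then below both and 36.3% above both under TMM, and 39.4% and 37.8% under the size factors. The median log2 ratio of the 7 members was 0.00 in KO, against 0.01 over all 251, and the median size of the ratio was 0.10 against 0.23. Between the WT libraries the median size of the difference was also smaller for the members, 0.056 against 0.175. By cluster, the median was 0.01 over the 3 products of the a cluster and -0.10 over the 3 of the b cluster. The latter is the ratio of miR-24-1-5p and ran from -0.18 without WT B to -0.01 without WT A.

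**Figure D2:**
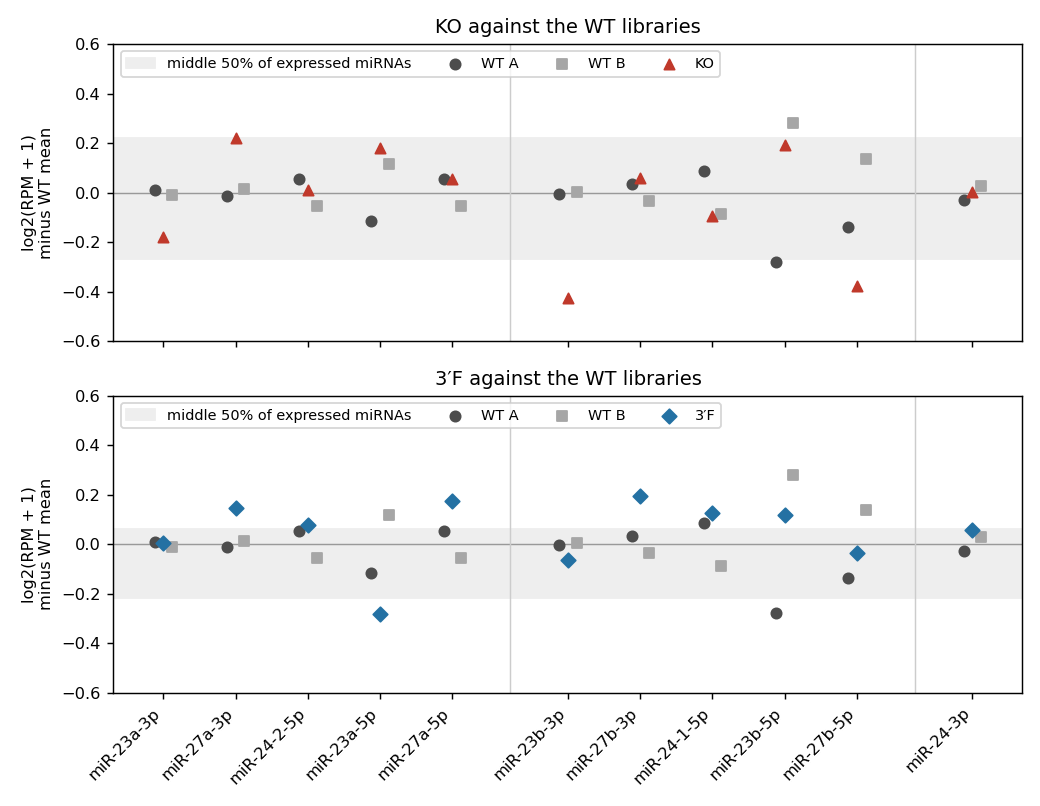
Difference of each product from its WT mean on the log2(RPM + 1) scale, for KO (top) and 3′F (bottom), with the same WT libraries in both panels and the band marking the middle 50% of the expressed miRNAs. In KO miR-23b-3p (-0.42) and the 5p strand of miR-27b (-0.38) lie below the band, and in 3′F the highest member is miR-27b-3p (0.19), and none of them passed the test.

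The comparison of 3′F with WT, which uses the same WT libraries, asks whether exchanging the 3′ portion of miR-146a altered these miRNAs. None of the 7 members passed the edgeR test, at an adjusted or an unadjusted p under 0.05, and none did by DESeq2 at either. Over all expressed miRNAs 1.20% passed the edgeR test at the adjusted p, and 17 of the 251 did at the unadjusted p. The edgeR log2 fold change was greatest for miR-27b-3p, 0.27 with an SE of 0.21, and the adjusted p was 0.985 for every member. Above both WT libraries were 5 of the 7 (miR-27a-3p, miR-27b-3p, miR-24-2-5p, miR-24-1-5p and miR-24-3p), where 22.7% of expressed miRNAs were, and below both was 1 (miR-23b-3p), where 44.2% were. Under TMM the split was 6 above and 0 below for the members and 31.5% above and 31.1% below for the expressed miRNAs, so the direction of small differences in this library depended on the scaling. The median log2 ratio was 0.08 for the 7 members and -0.08 for all expressed miRNAs, a difference that no test here addresses.

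**Figure D3:**
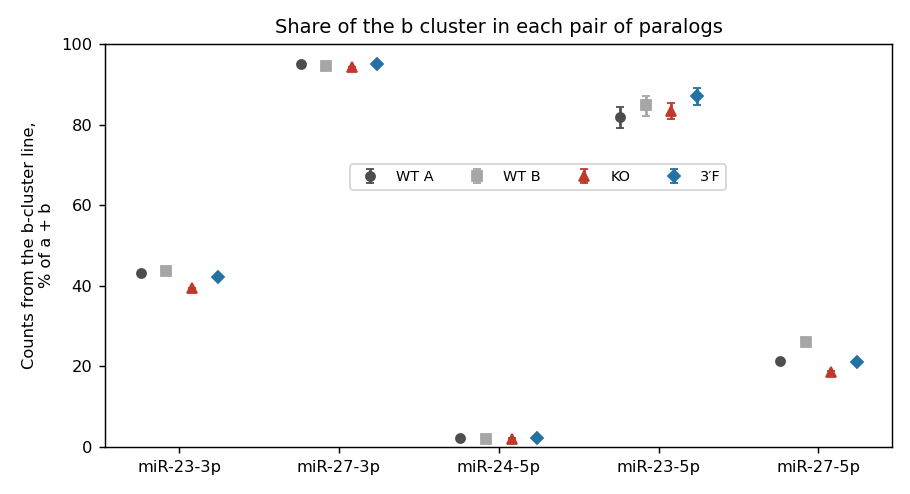
Share of the b-cluster line in the summed counts of each pair of paralogs, in percent, with 95% Wilson intervals where they are wider than the points. The b share of miR-23-3p is lowest in KO, that of miR-27-3p lies between 94.2% and 94.9%, and that of the miR-24 5p strands between 1.95% and 2.17%, while the 5p strands of miR-23 lie between 81.8% and 87.1% and those of miR-27 between 18.5% and 26.0%.

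The share of the b cluster in each pair of paralogs does not depend on the scaling of the libraries. For miR-23-3p the b share was 43.2% for WT A, 43.7% for WT B, 39.3% for KO and 42.3% for 3′F. The KO share was 4.10 percentage points lower than the WT mean of 43.4 ± 0.343% (SD, n = 2) and below both WT libraries. The 95% Wilson intervals cover counting error only and were too narrow to overlap even between the WT libraries, from 42.99% to 43.36% in the one and from 43.43% to 43.89% in the other. The 3′F share was 1.17 points lower, also outside the WT values. These shares were not tested against the spread between cultures.

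For miR-27-3p the b share was 94.9% for WT A, 94.6% for WT B, 94.2% for KO and 94.9% for 3′F. KO was 0.596 points lower than the WT mean and below both WT libraries, while 3′F lay between them. The miR-23 and miR-27 pairs thus both had their lowest b share in KO. In that library the b copy of miR-23 was the further below WT, whereas in the miR-27 pair the a copy was the further above it.

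For the 5p strands of miR-24 the b share was 2.14% for WT A, 2.04% for WT B, 1.95% for KO and 2.17% for 3′F. KO was below both WT libraries and 3′F above both. The intervals of all 4 libraries overlapped, from 1.78% to 2.12% in KO and from 1.97% to 2.33% for WT A. They cover counting error only, and their overlap is not a test of a difference between libraries. The a-cluster strand had 45.7 times the counts of the b-cluster strand for WT A, 47.9 for WT B, 50.4 for KO and 45.1 for 3′F.

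The 5p strands of the other hairpins, which are usually degraded, were the other products of the clusters. They are printed to show where the paralogs part in sequence (seed again in capitals, RefSeq, GRCm38.p6).
miR-23a-5p: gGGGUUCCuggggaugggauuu
miR-23b-5p: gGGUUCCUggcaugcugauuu
miR-27a-5p: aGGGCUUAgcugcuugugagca
miR-27b-5p: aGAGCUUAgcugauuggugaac

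The 5p strands of miR-27 differ at 8 positions. miR-27a-5p came to 1508 RPM for WT A, 1398 for WT B, 1510 for KO and 1639 for 3′F. miR-27b-5p came to 407 RPM for WT A, 491 for WT B, 344 for KO and 437 for 3′F. KO was the lowest library for miR-27b-5p, with an edgeR log2 fold change of -0.40 (SE 0.24) and an adjusted p of 0.348 in the quasi-likelihood test. The b cluster gave 21.2% of the miR-27 5p counts for WT A, 26.0% for WT B, 18.5% for KO and 21.04% for 3′F, where it gave at least 94.2% of the 3p counts. The order of the loci thus turned with the strand, with more 3p reads from miR-27b and more 5p reads from miR-27a in all 4 libraries.

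For miR-23 the 5p strands were scarce. miR-23a-5p came to 9.25 RPM for WT A, 11.04 for WT B, 11.6 for KO and 8.15 for 3′F. miR-23b-5p came to 41.6 RPM for WT A, 61.8 for WT B, 58.1 for KO and 55.1 for 3′F. The WT libraries differed more from each other in miR-23b-5p than either mutant library did from WT B. The b share of these 5p strands was 81.8% for WT A, 84.8% for WT B, 83.4% for KO and 87.1% for 3′F, against 39.3% to 43.7% for the 3p strands. In the 5p strands, unlike the 3p strands, the b share of KO lay between those of the WT libraries.

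None of the 4 other strands passed the edgeR test in KO or in 3′F, at an adjusted or an unadjusted p under 0.05. In KO 1 was below both WT libraries (miR-27b-5p) and 2 were above (miR-23a-5p and, except under TMM and DESeq2's size factors, miR-27a-5p), where 39.4% and 37.8% of expressed miRNAs were. In 3′F 1 was below (miR-23a-5p) and 1 above (miR-27a-5p), where 44.2% and 22.7% of expressed miRNAs were.

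The ratio of 3p to 5p reads of each hairpin is also free of library scaling. For miR-27b it was 256 for WT A, 202 for WT B, 308 for KO and 266 for 3′F, and for miR-27a 3.68, 4.04, 4.32 and 3.78 in the same order. Both were highest in KO. For miR-23b the ratio was 163 for WT A, 111 for WT B, 87.5 for KO and 118 for 3′F, and for miR-23a it was 967, 799, 677 and 1093. Both miR-23 ratios were lowest in KO, so KO stood at opposite ends of the order in the 2 families. On the log2 scale KO differed from the WT mean by -0.618 for miR-23b and -0.376 for miR-23a. The WT libraries differed from each other by -0.560 and -0.275 there. For miR-27b and miR-27a KO differed by 0.437 and 0.166, and the WT libraries by -0.342 and 0.135. The shifts in KO were thus not far from the WT difference in size, and they were not tested.

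The ratio between products of the same cluster, which are transcribed together, compares miR-27 with miR-23 within each library. In the a cluster the number of miR-27a-3p reads per miR-23a-3p read was 0.620 for WT A, 0.640 for WT B, 0.833 for KO and 0.696 for 3′F. In the b cluster the number of miR-27b-3p reads per miR-23b-3p read was 15.3 for WT A, 14.5 for WT B, 20.8 for KO and 17.8 for 3′F. Both ratios were higher in KO and in 3′F than in either WT library. On the log2 scale the KO ratio exceeded the WT mean by 0.40 in the a cluster and 0.48 in the b cluster, against differences of 0.05 and -0.08 between the WT libraries. In 3′F the excess was 0.14 and 0.26.

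**Figure D4:**
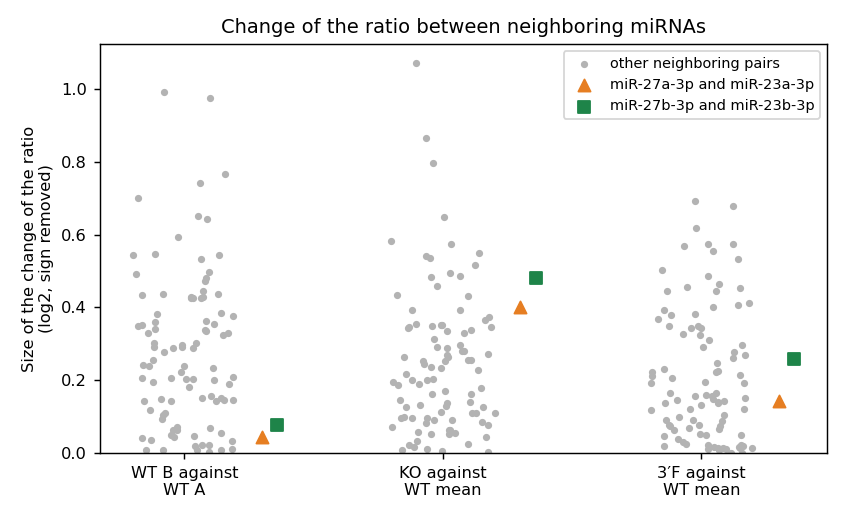
Size of the change in the ratio of neighboring miRNAs, on the log2 scale with the sign removed, for WT B against WT A, KO against the WT mean and 3′F against the WT mean. Grey points are 95 other pairs of expressed miRNAs from hairpins within 10 kb on the same strand, and the 27 to 23 ratio of the a cluster (0.40 in KO) and of the b cluster (0.48) lie in their upper part in KO and in their lower part between the WT libraries.

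The same change was computed for 95 other pairs of expressed miRNAs whose hairpins lie within 10 kb on the same strand, which involve 67 miRNAs and 45 hairpins. In KO 13 of the 95 (13.7%) changed at least as much as the b cluster ratio and 16 (16.8%) at least as much as the a cluster ratio, and the median size of the change was 0.23. Between the WT libraries 75 and 83 of the 95 changed at least as much, with a median size of 0.26. In 3′F the counts were 34 and 54. The pairs share miRNAs and libraries and were not matched to the clusters in read level. These counts are thus a description of where the clusters lay among other neighbors and not a test.

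The 5p strands of the same hairpins did not show the higher ratio in KO. The miR-27a-5p to miR-23a-5p ratio was 163 for WT A, 127 for WT B, 130 for KO and 201 for 3′F, so KO lay between the WT libraries. In the b cluster the ratio of the 5p strands was 9.76 for WT A, 7.96 for WT B, 5.92 for KO and 7.92 for 3′F, so KO was the lowest, opposite to the 3p strands. Relative to miR-23, the 5p strand of miR-24 was also higher in KO, with 0.169 reads for each miR-23a-3p read against 0.153 for WT A and 0.144 for WT B. This change of 0.19 on the log2 scale was below the median of the other neighboring pairs, of which 54 of 95 changed at least as much. In the b cluster the miR-24-1-5p to miR-23b-3p ratio was higher in KO by 0.33, above that median of 0.23. There 30 of 95 pairs changed at least as much, and the WT libraries differed by 0.18. The ratio of miR-24-3p to miR-23a-3p was 0.928 for WT A, 0.978 for WT B, 1.08 for KO and 0.988 for 3′F. The miR-27a-3p to miR-24-2-5p ratio was 4.05 for WT A, 4.45 for WT B, 4.92 for KO and 4.46 for 3′F. On the log2 scale KO exceeded the WT mean by 0.21, against 0.40 for the miR-27a-3p to miR-23a-3p ratio. The WT libraries differed by 0.14 in the miR-27a-3p to miR-24-2-5p ratio.

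Summed over loci, the miR-23-3p pair held 15741 RPM for WT A, 15659 for WT B, 12923 for KO and 15424 for 3′F. The miR-27-3p pair held 109566 RPM for WT A, 104844 for WT B, 112197 for KO and 122315 for 3′F. The family sum of miR-23 was thus lowest in KO and that of miR-27 highest in 3′F, under each of the 4 scalings. The 3 products of the a cluster summed to between 15697 and 16496 RPM in the 4 libraries and those of the b cluster to between 106061 and 122665 RPM, the latter being at least 93.5% miR-27b-3p.

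By pattern over the 4 libraries, the miRNAs most like the members were sought among 118 expressed miRNAs with a mean of at least 100 RPM, by the largest difference in log2(RPM + 1), centred on WT, over the WT B to WT A difference, KO and 3′F. Closest to miR-23b-3p was miR-425-5p, which differed by at most 0.09 on the log2 scale and came to 248 RPM for WT A, 236 for WT B, 177 for KO and 218 for 3′F. miR-22-5p (0.13) and miR-1981-5p (0.14) came next. Closest to miR-27b-3p was miR-182-5p (0.08), at 393 RPM for WT A, 395 for WT B, 434 for KO and 446 for 3′F, followed by miR-148a-3p (0.11) and miR-326-3p (0.16). None of these is encoded in either cluster, and a likeness over 4 libraries with nearly flat profiles is a weak one.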

How the data were processed

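Small RNA was sequenced from 4 resting BMDM cultures after NEBNext library preparation and size selection. The authors deposited estimated counts, of which between 10.8% and 12.3% of lines per library were not whole, so reads were shared among miRNAs. The authors also deposited RPM, each count per 1000000 counts over all 2129 lines. Adapter trimming with cutadapt 1.8.3 is named in the submitters' processing notes. The aligner, counter, genome build and miRNA release are not given in the sources used here. All columns were used (0 left out).

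For each mature miRNA the line with the highest summed count was kept. Estimated counts were rounded and fitted with edgeR (TMM, quasi-likelihood, 1 residual degree of freedom, Benjamini-Hochberg over 251 miRNAs with a mean of at least 10 RPM). The fit shared a common spread among miRNAs (biological coefficient of variation 12.5%) and was tested on simulated data. The SE given with an edgeR log2 fold change was derived, as the size of that change divided by the square root of its F statistic. With nothing to show separate mice, p-values measure the spread between these 2 WT libraries. Log2 ratios used a pseudocount of 1, which understates changes of low miRNAs. Wilson intervals (95%) cover counting error only, and reads carry no molecular identifiers, so they are not independent molecules.

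Named were the 7 members, the other 4 strands, miR-146a-5p, and the 3 miRNAs most like miR-23b-3p and miR-27b-3p each. miR-21a-5p, the 4 miRNAs of blood cells, the 14 miRNAs of other cell types (general knowledge) and miR-3074 were added after values were seen. The members, lists and rules were chosen with earlier results of these data known. Alternatives were DESeq2, other scalings, minimums of 1 and 100 RPM or none, a pseudocount of 0.1, fold thresholds of 1.5 and 2, the Mir24-1 line, the 5p strands, and leaving out WT A or WT B. Python 3.11.15 (numpy 2.4.6, pandas 2.3.3, scipy 1.17.1, matplotlib 3.10.9) and R 4.3.3 (edgeR 4.0.16, DESeq2 1.42.0) were used.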

Additional observations from a re-analysis of the deposited data

How the results depend on the processing

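No paired analysis was possible because each mutant library shares with WT only the letter A of its column name, which makes 1 pair per comparison. No member was called in 3′F under any test, filter or fold threshold run, and in KO the count rose from 0 to 1 (miR-23b-3p) only with a minimum of 100 RPM. Leaving out WT A or WT B left no residual degree of freedom, and no member was then 2-fold from the remaining WT library (0 and 0). Over all miRNAs tested, 30 were called in KO and 3 in 3′F, against 46 and 7 of 439 with a minimum of 1 RPM, 8 and 1 with 100 RPM, 48 and 5 of 1102 with no minimum, 20 and 1 with the library total alone, and 21 and 1 by DESeq2.

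Members outside the WT range in KO went from 5 to 3 with TMM and to 3 with DESeq2's size factors. The shares of expressed miRNAs below and above both WT libraries were 39.4% and 37.8% in RPM and with the size factors. With TMM they were 40.2% and 36.3%. The a cluster median in KO (0.01) was -0.005 with TMM, 0.024 with RPM over 1 line per miRNA, 0.056 with the other strands, and between -0.046 and 0.064 without a WT library, so its sign was not fixed. In 3′F (0.08) it was 0.16 with TMM, 0.14 with DESeq2's size factors and between 0.023 and 0.133 without a WT library. The b cluster median in KO (-0.10) lay between -0.182 and -0.009 without a WT library, and in 3′F (0.13) it was 0.20 with TMM, 0.19 with DESeq2's size factors and between 0.039 and 0.212 without a WT library.

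With the 5p strands in place of the 3p strands, the b share of miR-23 differed from WT by 0.0431 percentage points in KO and 3.79 in 3′F (from -4.10 and -1.17), and that of miR-27 by -5.09 and -2.58 (from -0.596 and 0.157). The log2 ratio of miR-27 to miR-23 then was -0.14 in KO and 0.49 in 3′F in the a cluster, and -0.57 and -0.16 in the b cluster. The cause was not tested. Of the 14 log2 ratios of members, 4 changed sign under some alternative (miR-23a-3p and miR-23b-3p in 3′F, miR-24-2-5p and miR-24-3p in KO). Scaling moved the median of all expressed miRNAs by at most 0.08. With 1 library per mutant, differences smaller than the spread between cultures cannot be seen.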

Other observations

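Reads were also counted for miR-3074, which is annotated opposite the miR-24 hairpins. Mir3074-2 and Mir3074-1 lie on the minus strand over Mir24-2 and Mir24-1, and the miR-3074-5p line of the hairpin opposite Mir24-1 held 61.5 counts for WT A, 42 for WT B, 85 for KO and 62.5 for 3′F. The line of the hairpin opposite Mir24-2 held 61.5, 41, 83 and 58.5 counts in the same order, so the reads of this strand do not show their locus. miR-3074-1-3p held 8 counts for WT A, 4 for WT B, 19 for KO and 5 for 3′F. miR-3074-2-3p, the strand particular to the hairpin opposite Mir24-2, held 1 count for WT A and 0 in the other libraries. The miR-3074 counts were below those of miR-24-1-5p in every library.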
